A study of Mus musculus with 24 samples.

Results

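Transgenic A/J and BALB/cJ mice, 6 of the 24 mice of the series, were compared. Both strains are albino and share ancestry, yet the series design places A/J among its fibrosis-prone strains and BALB/cJ among its resistant strains. The members were taken by their titles: 3 transgenic (TG) A/J mice and 3 TG BALB/cJ mice, with 1 wild-type (WT) mouse of each strain as baseline. All 24 mice, WT included, drank doxycycline for 2 weeks, which switches on a TGF-β1 transgene in the TG mice. Not stated are the promoter driving the transgene, the number of backcrosses into each strain, and the age and sex of the mice. The per-sample fibrosis label has a numeric key under which A/J would be resistant and BALB/cJ prone, opposite to the design. BALB/cJ also carries the label emphysema, and that label is empty for A/J. Total RNA of the right lung lobe was hybridised to whole-transcript arrays, and 13499 genes were read as log2 intensities, where a difference of 1 is a 2-fold change.

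TGF-β1 is a secreted cytokine that is held in the matrix in latent form, is released by integrins and other activators, and signals through paired receptor kinases to Smad transcription factors. In the lung it drives fibroblasts to make collagen and other matrix proteins, restrains the division of most epithelial and endothelial cells, and changes the differentiation of alveolar epithelium. Inbred strains are known to differ in how much scar tissue forms in the lung after the same injury.

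The 8 arrays had medians between 7.759 and 7.825, and mice of the same TG group correlated across genes at 0.9916 to 0.9967. Strain labels were checked on genes known to vary between strains. H2-Ea, an MHC class II chain missing in some strains, read at least 12.21 in all 8 mice, against 6.27 to 6.74 in the TG 129 mice. Zhx2, a transcriptional repressor that is known to be reduced in BALB/cJ, read 8.01, 7.96 and 9.30 in TG BALB/cJ mice 1, 2 and 3 and 9.37 in the WT BALB/cJ mouse, so TG mouse 3 and the WT mouse stood apart from TG mice 1 and 2 and near the 9.74, 9.97 and 9.64 of the TG A/J mice. The same split was seen for Sympk (TG BALB/cJ 6.18, 6.70 and 8.97, WT BALB/cJ 9.27) and Npl (7.55, 7.50 and 9.17, WT 9.15), both chosen after their values were seen. In A/J, Sympk also split, with TG mouse 3 and the WT mouse at 9.97 and 9.98 and TG mice 1 and 2 at 8.03 and 8.23. The WT A/J mouse stood apart from the TG A/J mice in Nlrp1a, a strain-variable inflammasome sensor (7.47 against 6.15, 5.43 and 5.80), and Glo1, a copy-number variable glyoxalase (11.20 against 10.04, 10.56 and 9.81). The WT BALB/cJ mouse had high platelet genes, among them Ppbp at 12.58 against 10.04 in the WT A/J mouse. Whether these mice differ in genetic background from their labels was not tested, so values that rest on TG BALB/cJ mouse 3 or on a single WT mouse are given as such below.

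TG A/J lungs differed from TG BALB/cJ lungs in 1435 genes, 10.6% of the 13499 tested, at a limma p-value adjusted over all genes (Benjamini and Hochberg) under 0.05. Of these, 920 were higher in A/J (6.82% of genes tested) and 515 were lower (3.82%). Counts of called members in the gene lists below stand against these 2 shares. Most differences were small: the median size was 0.388 on the log2 scale, and 98 genes passed 2-fold, 78 of them higher in A/J and 20 lower. The 3 A/J and 3 BALB/cJ mice did not overlap in 1396 of the called genes, while 27.7% of all genes had no overlap. After quantile normalization the split was 777 higher and 697 lower, so the share of calls that were higher in A/J went from 64.1% to 52.7%, and 1281 genes were called in both. The count of calls was 781 without TG BALB/cJ mouse 2 and 936 without TG A/J mouse 1, and 1115 without TG BALB/cJ mouse 3. Among the 15 pairs of strains, TG A/J and TG BALB/cJ ranked ninth from the lowest count, between 309 genes for AKR/J against BALB/cJ and 3026 for AKR/J against C57BL/6J, whose TG group has 2 mice.

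Cell division genes were the list with the largest shift, and all its measured members were higher in TG A/J lungs. Of the 12 largest differences among called genes higher in TG A/J mice without overlap, 6 were cell division genes. They included Ccna2 (cyclin A2, needed for DNA replication and entry into mitosis), Kif11 (the kinesin that separates spindle poles) and Top2a (the topoisomerase that untangles replicated DNA). The others were Cdk1 (the kinase that starts mitosis), Bub1 (a kinase of the spindle checkpoint) and Ect2 (an exchange factor for cytokinesis). The upstream sequences of the 5 of these 6 genes that the RefSeq promoter table holds are shown because their genes moved together and carry motifs known from cell cycle promoters. Each is the 150 bases before the annotated start, 5′ to 3′ on the gene's strand, in GRCm38.p6. Capitals mark CCAAT or its reverse ATTGG, the box bound by NF-Y, and TTTGAA or its reverse TTCAAA, the core of the cell cycle homology region bound by the DREAM complex.
Kif11: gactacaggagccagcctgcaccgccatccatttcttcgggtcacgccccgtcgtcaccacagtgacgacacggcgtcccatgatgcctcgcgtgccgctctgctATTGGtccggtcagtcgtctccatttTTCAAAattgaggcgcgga
Top2a: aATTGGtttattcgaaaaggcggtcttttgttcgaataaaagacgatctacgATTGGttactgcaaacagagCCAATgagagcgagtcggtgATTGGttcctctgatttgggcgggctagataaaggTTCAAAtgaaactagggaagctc
Cdk1: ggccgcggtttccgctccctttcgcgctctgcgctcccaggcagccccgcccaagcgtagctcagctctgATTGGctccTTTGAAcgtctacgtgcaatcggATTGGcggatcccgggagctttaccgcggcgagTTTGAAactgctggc
Bub1: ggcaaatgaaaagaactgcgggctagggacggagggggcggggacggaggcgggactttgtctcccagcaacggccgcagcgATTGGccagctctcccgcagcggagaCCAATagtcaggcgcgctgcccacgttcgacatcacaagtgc
Ect2: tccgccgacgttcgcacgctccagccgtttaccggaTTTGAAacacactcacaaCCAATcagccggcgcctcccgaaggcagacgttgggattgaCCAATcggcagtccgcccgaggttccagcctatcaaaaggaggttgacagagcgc
The windows lie at chr19:37376232-37376381, plus strand for Kif11, at chr11:99024190-99024339, minus strand for Top2a, at chr10:69352913-69353062, minus strand for Cdk1, at chr2:127831860-127832009, minus strand for Bub1 and at chr3:27153879-27154028, minus strand for Ect2, which has 2 windows in the table and is shown by the first listed. A script found 1 CCAAT box and 1 TTTGAA match in Kif11, 4 and 1 in Top2a, 2 and 2 in Cdk1, 2 and 0 in Bub1, and 2 and 1 in Ect2, counting both strands. Of the 30 cell cycle genes measured, 25 matched the table with 26 windows. Of these windows, 16 (61.5%) held CCAAT, against 25.1% of the 12875 windows of all measured genes in the table, 10 (38.5%) held TTTGAA, against 7.0%, and 6 (23.1%) held both, against 1.8%. A match describes letters in the window and does not show a bound site.

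Kif11 read 9.65, 8.91 and 9.38 in TG A/J mice 1, 2 and 3 and 7.34, 7.83 and 7.20 in TG BALB/cJ mice 1, 2 and 3. Top2a read 9.51, 9.01 and 9.23 in the A/J mice and 7.25, 7.80 and 7.13 in the BALB/cJ mice. For Cdk1 the values were 9.84, 9.19 and 9.60 against 7.72, 7.93 and 7.47. In all 3 genes the lowest A/J mouse lay above the highest BALB/cJ mouse, and within A/J mouse 1 was the highest and mouse 2 the lowest. The differences were 1.86 ± 0.17 (SE) on the log2 scale for Kif11 (3.63-fold, adjusted p = 4.3e-06), 1.85 ± 0.17 for Top2a (3.61-fold, adjusted p = 4.3e-06) and 1.84 ± 0.17 for Cdk1 (3.58-fold, adjusted p = 4.3e-06). Ccna2 had the largest difference of the list, at 10.52, 9.59 and 10.29 against 7.81, 8.31 and 7.81 (2.15 ± 0.20, adjusted p = 4.9e-06, 4.45-fold). Bub1 read 8.96, 8.03 and 8.48 against 6.28, 7.25 and 6.49 (1.82 ± 0.22, adjusted p = 5.4e-05) and Ect2 10.18, 9.84 and 10.15 against 8.39, 8.58 and 8.04 (1.72 ± 0.16, adjusted p = 4.3e-06). A second probe set of Top2a, with a mean level of 4.93 against 7.71 for the one used, differed by -0.05 with no test of its own.

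All 30 cell cycle genes measured were called higher in TG A/J mice, with no overlap between the 3 and 3 mice in any of them and a median difference of 1.12, against a median of 0.032 over all genes. The smallest was Mcm4, a subunit of the replicative helicase, at 0.33 ± 0.08 (adjusted p = 0.013), named after its value was seen. The count was 29 after quantile normalization, 27 with only the 8 A/J and BALB/cJ arrays and 28 to 30 when any 1 TG mouse was left out. In the WT mice limma called 0 of the 30, with 0 at an unadjusted p under 0.05, and their median difference between A/J and BALB/cJ was -0.04. The transgene effect was called for 26 of the 30 in A/J, all higher, and for 0 in BALB/cJ, where 1 was at an unadjusted p under 0.05. The median level over the list was 8.39, 7.97 and 8.22 in the TG A/J mice and 7.17 in the WT A/J mouse. In BALB/cJ it was 6.95, 7.27 and 6.93 in the TG mice and 7.06 in the WT mouse, so the TG BALB/cJ mice lay on both sides of their WT mouse. TG C57BL/6J mice, at 7.77 and 7.76, came nearest to TG A/J, and all other TG mice read between 6.93 and 7.38. Of the 30 genes, 17 in C57BL/6J, 1 in AKR/J, 0 in C3H and 0 in 129 had a TG mean nearer to A/J than to BALB/cJ. Replication-dependent histone genes on chromosome 13, chosen after their values were seen, moved with this list: H2ac4 read 6.24, 5.82 and 5.98 against 4.77, 4.91 and 4.82 and H2bc3 9.37, 9.15 and 9.44 against 8.06, 8.19 and 7.77 (adjusted p = 8.2e-05 and 3.9e-05), though near-identical histone copies can share probes.

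**Figure D1:**
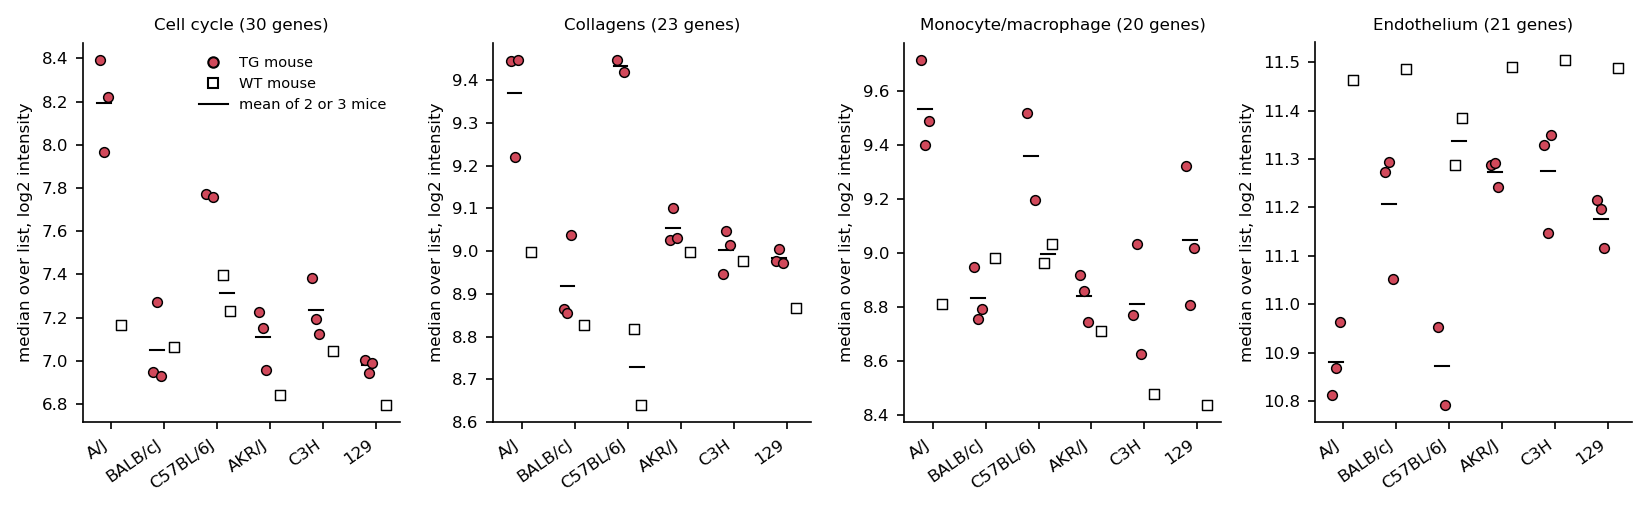
Median log2 intensity over 4 gene lists in each of the 24 mice, by strain; filled circles are TG mice, open squares WT mice, and lines are means of groups with 2 or 3 mice. The 3 TG A/J mice read 7.97 to 8.39 for cell cycle genes, above every other mouse, and with the 2 TG C57BL/6J mice they read highest for collagens and lowest for endothelium.

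Of 23 collagen genes and collagen enzymes, 13 were called higher in TG A/J lungs and 0 lower, with a median difference of 0.29. Col1a1, the main chain of fibrillar collagen I, read 12.19, 11.80 and 11.98 in TG A/J mice and 11.21, 11.19 and 11.33 in TG BALB/cJ mice, with no overlap (0.75 ± 0.11, adjusted p = 0.00038, 1.68-fold). Col5a2, which starts fibrils with collagen I, differed by 0.69 ± 0.11 (adjusted p = 0.0009), Col15a1, a basement membrane collagen, by 0.63 ± 0.14 (0.0082) and Plod1, a lysyl hydroxylase that modifies collagen, by 0.63 ± 0.11 (0.0015). The count fell to 6 without TG BALB/cJ mouse 2 and to 7 without TG A/J mouse 1 or with only the 8 arrays, where Col15a1 had an adjusted p of 0.1. Col3a1 and Lox, a crosslinking enzyme, were the 2 list members called higher with the transgene in BALB/cJ, against 12 in A/J. Uncalled members were not unchanged: 19 of the 23 had a transgene effect above 0 in BALB/cJ and 20 in A/J. An unadjusted limma p under 0.05 was held by 7 in BALB/cJ and 16 in A/J. The difference of the 2 effects was called by limma for 0 of the 23 genes and had an unadjusted p under 0.05 for 8.

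Matricellular and elastic fibre genes went both ways, with 10 of 28 higher and 2 lower, and 6 higher with only the 8 arrays. Tnc, tenascin C, a glycoprotein of injured tissue, read 11.11, 11.16 and 11.54 in TG A/J mice and 9.82, 9.66 and 10.27 in TG BALB/cJ mice (1.35 ± 0.21, adjusted p = 0.00052, 2.55-fold). Thbs1, thrombospondin 1, an activator of latent TGF-β, read 12.83, 12.63 and 12.99 against 11.87, 11.41 and 11.59 (1.19 ± 0.19, adjusted p = 0.00078). In both genes the lowest A/J mouse exceeded the highest BALB/cJ mouse. Vcan, a large proteoglycan, was higher by 0.97 ± 0.21 (adjusted p = 0.0078), while Ogn, the small proteoglycan osteoglycin, was lower, at 11.23, 11.01 and 11.52 against 12.14, 12.20 and 12.21 (-0.93 ± 0.11, adjusted p = 3.7e-05).

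Of 27 measured genes of the TGF-β pathway itself, 4 were higher in TG A/J and 2 lower, and the 3 and 3 mice did not overlap in 13. Over all genes the shares were 6.82% higher, 3.82% lower and 27.7% without overlap. The list lay above each of these shares, though its calls were few. An unadjusted limma p under 0.05 was held by 13 of the 27 genes, against 3222 of the 13499 tested. Tgfbi, a matrix protein induced by TGF-β, was higher by 0.90 ± 0.14 (adjusted p = 0.00045), Ltbp2, a fibrillin-binding protein, by 0.75 ± 0.16 (0.0072), and Itgb6 and Itgav, the chains of the integrin that frees latent TGF-β, by 0.54 ± 0.11 (0.0053) and 0.37 ± 0.06 (0.00067). The 2 lower genes, Acvrl1 and Smad9, were named by count after their values were seen and were not called without TG A/J mouse 1, TG BALB/cJ mouse 2 or TG BALB/cJ mouse 3. Tgfb1 itself was not analysed here. Proteases and their inhibitors had 9 of 23 members higher and 1 lower. Mmp19, a matrix metalloproteinase, read 10.59, 11.24 and 10.06 against 8.999, 8.74 and 9.04 (1.70 ± 0.25, adjusted p = 0.00029, 3.25-fold), and Ctsk, the collagen-degrading cathepsin K, 11.36, 11.62 and 10.58 against 9.41, 9.56 and 9.79 (1.60 ± 0.23, adjusted p = 0.00024, 3.04-fold). TG A/J mouse 3 was the lowest of its group in both and still above all BALB/cJ mice. In the IGF family, Igf1 was higher by 0.61 ± 0.17 (adjusted p = 0.025) and Igfbp6, an IGF2-binding protein, lower, with a difference of -1.10 ± 0.17 (0.00053). The Igf1 call was lost when TG A/J mouse 1 or 3 or any of the TG BALB/cJ mice was left out, with adjusted p-values of 0.12, 0.091, 0.06, 0.084 and 0.054.

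**Figure D2:**
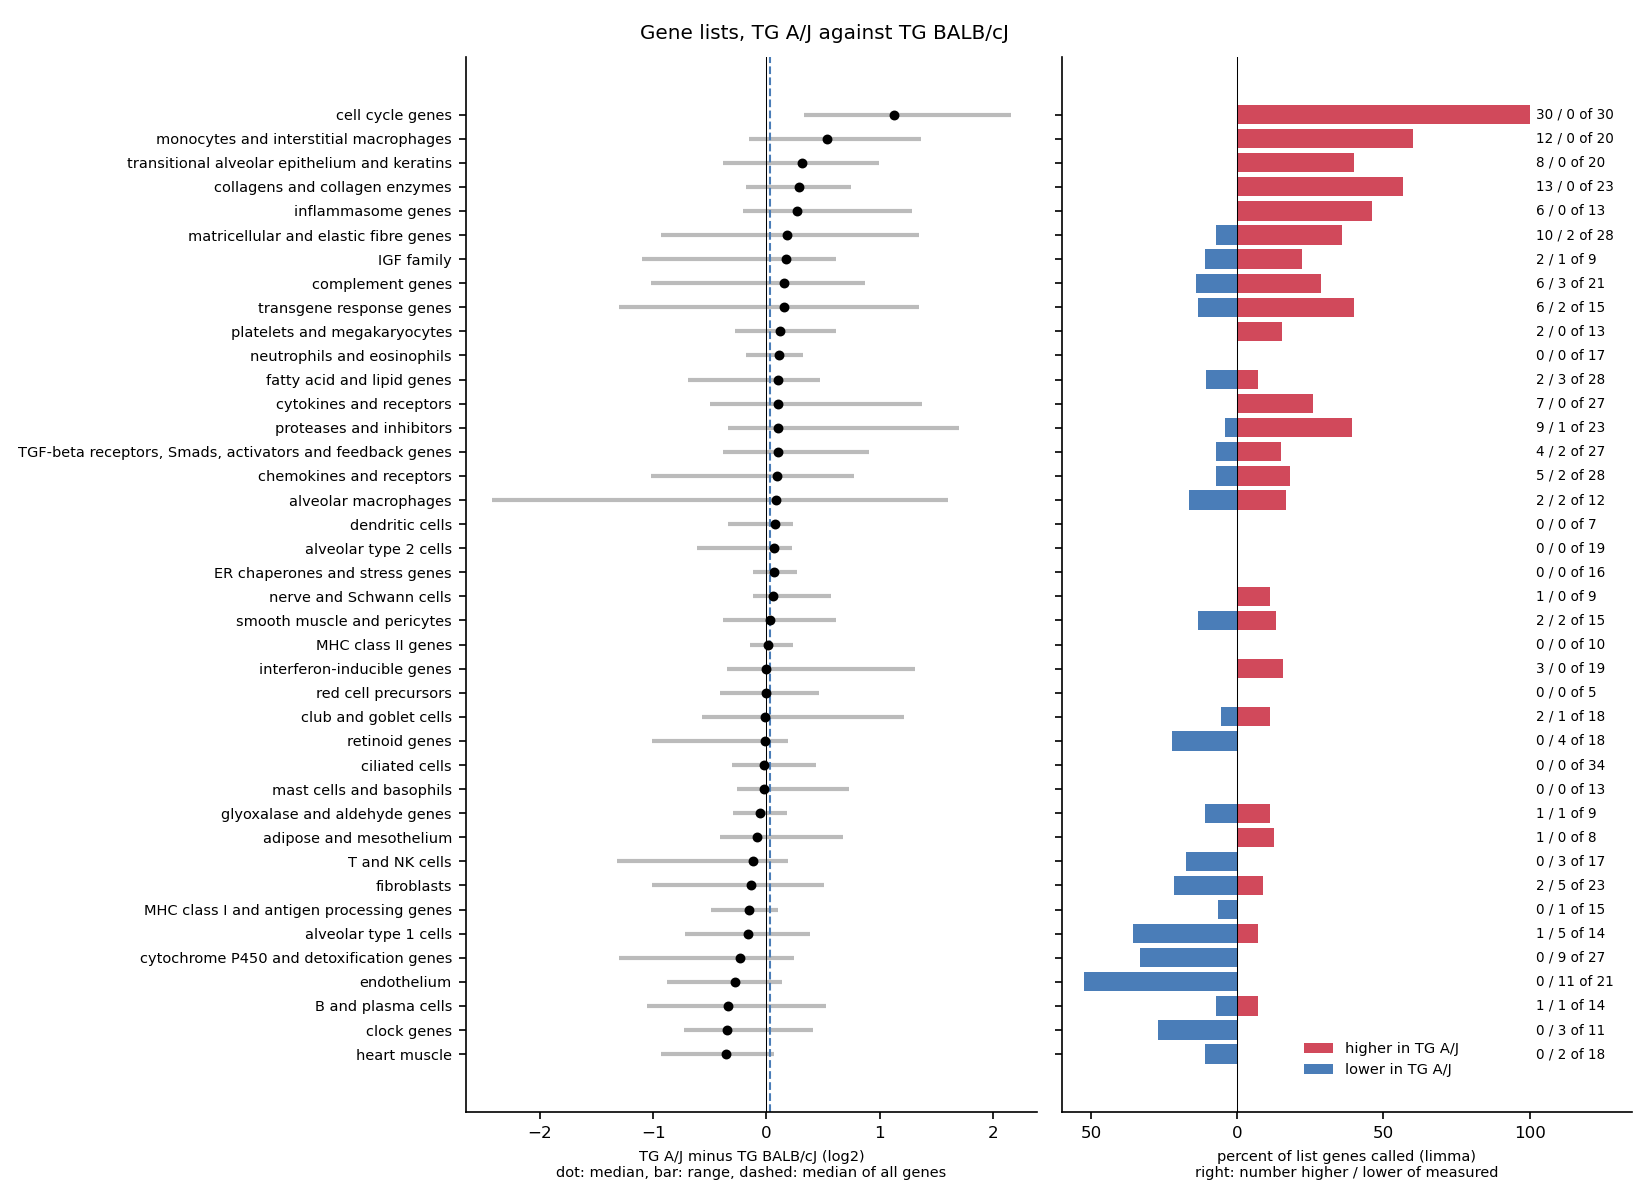
Gene lists compared between TG A/J and TG BALB/cJ mice; at left the median (dot) and range (bar) of log2 differences with the median of all genes (0.032) as a dashed line, at right the percent of measured members called higher or lower with the counts. Cell cycle genes stand at the top with 30 of 30 higher, and endothelium has the largest share lower, 11 of 21.

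Monocyte and interstitial macrophage markers were the second most shifted list, with 12 of 20 higher in TG A/J, 0 lower and a median difference of 0.53. Fcrls, an Fc receptor-like scavenger receptor of macrophages, read 9.37, 8.80 and 9.04 in TG A/J mice and 7.58, 7.80 and 7.72 in TG BALB/cJ mice (1.37 ± 0.13, adjusted p = 4.3e-06, 2.58-fold). Adgre1, a surface receptor of macrophages, was higher by 0.91 ± 0.08 (adjusted p = 4.2e-06) and C1qb, a chain of complement C1q made by macrophages, by 0.87 ± 0.14 (0.00058). The median over the list was 9.71, 9.40 and 9.49 in TG A/J mice and 8.95, 8.76 and 8.79 in TG BALB/cJ mice, with WT mice at 8.81 (A/J) and 8.98 (BALB/cJ). In bulk lung RNA, more or fewer cells of a type and more or less RNA per cell cannot be told apart. Cell cycle genes moved with these markers, and the part of one in the other was not tested. Alveolar macrophage markers went both ways, with 2 of 12 higher (5 without TG A/J mouse 3) and 2 lower (1 without TG A/J mouse 1 or TG BALB/cJ mouse 1 or 2): Mrc1, the mannose receptor, was higher (10.95, 11.01 and 10.73 against 10.21, 10.27 and 10.36, 0.62 ± 0.09, adjusted p = 0.00022) and Chil3, described with the strain-variable genes below, was lower.

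Cytokine genes were called higher in 7 of 27 cases and lower in 0. Il6, an inflammatory cytokine, read 6.58, 5.96 and 7.01 in TG A/J and 5.05, 5.33 and 5.16 in TG BALB/cJ mice (1.33 ± 0.31, adjusted p = 0.011), though these values are near the low end of the arrays. Il1rn, the antagonist of interleukin 1, read 9.42, 9.60 and 8.69 against 8.09, 8.19 and 8.42 (1.00 ± 0.18, adjusted p = 0.0018). Tnfsf18, the ligand of the costimulatory receptor GITR, differed by 1.37 ± 0.34 (adjusted p = 0.017) and Il1b by 0.78 ± 0.24 (0.043). The list count was 4 without TG BALB/cJ mouse 2 and 4 with only the 8 arrays. Without that mouse the adjusted p was 0.086 for Tnfsf18 and 0.12 for Il1b. The Tnfsf18 call was also lost without TG A/J mouse 3 (0.066) or TG BALB/cJ mouse 1 (0.072), and the Il1b call without TG A/J mouse 1 (0.18) or 2 (0.09) or TG BALB/cJ mouse 3 (0.17).

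Of 28 chemokine genes, 5 were higher (3 with only the 8 arrays) and 2 lower (4 without TG A/J mouse 3). Over all genes the shares were 6.82% higher and 3.82% lower. The monocyte attractants Ccl7, Ccl2 and Ccl8 were higher by 0.77 ± 0.17 (adjusted p = 0.0091), 0.70 ± 0.16 (0.0086) and 0.65 ± 0.12 (0.0023), and Ccl5, made largely by T and NK cells, was lower, with a difference of -1.02 ± 0.22 (0.007). T and NK cell genes had 3 of 17 members lower and 0 higher, against the same shares. Gzma, the protease granzyme A of cytotoxic cells, read 7.85, 7.79 and 7.97 against 9.34, 9.32 and 8.89 (-1.32 ± 0.24, adjusted p = 0.0017, 2.49-fold lower). Il2rb, a receptor chain for interleukins 2 and 15, was lower, with a difference of -0.64 ± 0.15 (0.009). For MHC class II genes, which present antigen to T cells, limma called 0 of 10 between the TG groups (0 at an unadjusted p under 0.05), with the largest difference in H2-Eb1 at 0.24 ± 0.14 (adjusted p = 0.35). With the transgene, 8 were called higher in A/J and 5 in BALB/cJ, and 8 had an unadjusted p under 0.05 in either strain. Neutrophil and eosinophil genes had 0 of 17 called (1 at an unadjusted p under 0.05), with the largest difference in Retnlg (0.32 ± 0.59, adjusted p = 0.8).

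Inflammasome genes had 6 of 13 higher and 0 lower, and 2 higher with only the 8 arrays. Nlrp1c-ps, a pseudogene of the Nlrp1 cluster on chromosome 11, read 6.57, 7.28 and 8.30 in TG A/J mice and 6.13, 6.18 and 5.998 in TG BALB/cJ mice (1.28 ± 0.26, adjusted p = 0.0043), with no overlap but a wide spread among the A/J mice. Nlrp1a was higher by 0.63 ± 0.16 (adjusted p = 0.017), a call lost without TG A/J mouse 1 (0.095), TG BALB/cJ mouse 1 (0.057) or TG BALB/cJ mouse 3 (0.051). The Nlrp1 genes are close copies, so which copy a probe set read is uncertain. Gbp5, an interferon-induced GTPase that promotes inflammasome assembly, read 8.19, 7.94 and 9.21 against 6.95, 7.43 and 7.02 (1.31 ± 0.22, adjusted p = 0.001). It and 2 other interferon-inducible genes, of 19, were higher and 0 lower, and 0 of the 3 were called with only the 8 arrays.

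Of 21 endothelial genes, 11 were lower in TG A/J mice and 0 higher, with a median difference of -0.28. Fibin, a secreted protein, had the largest difference (-0.88 ± 0.15, adjusted p = 0.0012). Gpihbp1, which anchors lipoprotein lipase on capillaries, read 10.41, 10.54 and 10.46 in TG A/J mice and 11.04, 11.13 and 11.05 in TG BALB/cJ mice (-0.60 ± 0.07, adjusted p = 2e-05). Ednrb, an endothelin receptor of the aerocyte capillary, read 9.82, 9.89 and 10.11 against 10.52, 10.69 and 10.51 (-0.63 ± 0.13, adjusted p = 0.004), and Ramp2, which makes the calcitonin-like receptor an adrenomedullin receptor, differed by -0.55 ± 0.08 (adjusted p = 0.00024). The count was 7 without TG A/J mouse 1 or TG BALB/cJ mouse 2, 6 with only the 8 arrays and 14 after quantile normalization. The endothelial median was 10.81, 10.87 and 10.96 in TG A/J mice, 11.27, 11.29 and 11.05 in TG BALB/cJ mice, and 11.46 and 11.48 in the WT A/J and WT BALB/cJ mice, so both TG groups lay below their WT mouse.

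Alveolar type 1 cell genes had 5 of 14 members lower and 1 higher. Rtkn2, a marker of type 1 cells, read 10.21, 10.20 and 10.36 against 10.75, 10.89 and 11.30 (-0.72 ± 0.13, adjusted p = 0.0021), Sema3a 10.27, 10.26 and 10.38 against 10.68, 10.73 and 10.85 (-0.45 ± 0.09, adjusted p = 0.0031) and Sema3e 10.09, 10.28 and 10.16 against 10.56, 10.66 and 10.62 (-0.43 ± 0.06, adjusted p = 0.00028). The last 2 encode secreted guidance proteins, and in none of the 3 genes did the groups overlap. Aqp5, a water channel, was the higher member (0.39 ± 0.10, adjusted p = 0.021) and was not called without TG A/J mouse 1 (0.052) or 2 (0.085) or TG BALB/cJ mouse 1 (0.087) or 2 (0.063). Alveolar type 2 cell genes had 0 of 19 called (1 at an unadjusted p under 0.05), with the largest difference in Lyz1 (-0.61 ± 0.22, adjusted p = 0.086). Keratins and transitional epithelium genes, which mark injured alveolar cells between the type 2 and type 1 states, had 8 of 20 higher and 0 lower. Over all genes 6.82% were higher. The TG BALB/cJ mice had the lowest list medians of all TG mice, 8.66 to 8.89, against 9.36 to 9.595 in TG A/J. TG mice of the resistant strains 129 (9.27 to 9.54) and C3H (9.31 to 9.66) read near TG A/J, so a high level was not limited to prone strains. Tgm1, a crosslinking enzyme of squamous cells, read 9.53, 9.69 and 9.78 against 8.91, 8.49 and 8.66 (0.98 ± 0.16, adjusted p = 0.00069), and Sprr1a, its substrate, 8.91, 8.32 and 9.06 against 7.83, 7.66 and 7.83 (0.99 ± 0.21, adjusted p = 0.0062). Lgals3, galectin 3, was higher by 0.87 ± 0.13 (0.00049) and Sfn, the epithelial 14-3-3 sigma, by 0.81 ± 0.17 (0.0052). Lgals3 is also abundant in macrophages, whose markers moved the same way.

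Detoxification genes of the airway and alveolar epithelium were lower: 9 of 27 were called lower, 0 higher, with a median of -0.23. Gsta3, a glutathione transferase, read 8.44, 8.83 and 9.15 in TG A/J and 9.98, 10.17 and 10.17 in TG BALB/cJ mice (-1.30 ± 0.18, adjusted p = 0.00018, 2.46-fold lower). Gstm1, another glutathione transferase, read 10.88, 11.36 and 10.73 against 11.89, 11.96 and 12.01 (-0.97 ± 0.14, adjusted p = 0.00024), and Fmo2, the lung's flavin monooxygenase, differed by -0.82 ± 0.13 (adjusted p = 0.00045). Glutathione transferases are close copies, and which member a probe set read is uncertain. Akr1c14, a steroid-reducing enzyme, was lower too, at 8.29, 8.35 and 9.29 against 9.73, 10.03 and 10.04 (-1.29 ± 0.20, adjusted p = 0.00058). Ciliated cell genes had 0 of 34 called between the TG groups (2 at an unadjusted p under 0.05), with the largest difference in Rsph1 (0.44 ± 0.16, adjusted p = 0.09). Club and goblet cell genes had 2 higher and 1 lower of 18, against 6.82% higher and 3.82% lower over all genes. They were led by Bpifb1, an airway secretory protein (1.22 ± 0.29, adjusted p = 0.013), whose call was lost without TG A/J mouse 3 (0.056) or TG BALB/cJ mouse 2 (0.052).

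Fibroblast genes had 5 of 23 lower and 2 higher, the latter 0 without TG A/J mouse 1, TG BALB/cJ mouse 1 or TG BALB/cJ mouse 2. For the lists in this paragraph, the shares over all genes were 3.82% lower and 6.82% higher. The count of higher fibroblast genes lay near its share. Vipr2, a receptor for vasoactive intestinal peptide, was lower, with a difference of -0.94 ± 0.13 (adjusted p = 0.00014), as were Tcf21, a transcription factor of lipofibroblasts, with -0.60 ± 0.14 (0.012), and Lrat, which stores retinol as esters, with -1.01 ± 0.26 (0.018). The Tcf21 call was lost without TG BALB/cJ mouse 3 (0.052), and the Lrat call without TG A/J mouse 2 (0.078) or TG BALB/cJ mouse 1 (0.062) or 2 (0.098). Lrat with Rbp4, Rxrg and Aldh1a1 made up the 4 of 18 retinoid genes that were lower, with 0 higher, and the count was 2 without TG BALB/cJ mouse 1 or 2. Heart muscle genes, which mark pieces of heart or of the muscular sleeve of the pulmonary veins, had 2 of 18 lower, led by Myl7 (-0.93 ± 0.23, adjusted p = 0.016). The count was 5 without TG BALB/cJ mouse 1, 1 without TG A/J mouse 1 or 3, and 0 without TG BALB/cJ mouse 2 or 3. Their median level was 7.92, 7.89 and 7.97 in TG A/J mice, 7.97, 8.30 and 8.65 in TG BALB/cJ mice and above 9 in both WT mice (9.23 and 9.49). Clock genes had 3 of 11 lower, and 1 without TG A/J mouse 1 or TG BALB/cJ mouse 3. That BALB/cJ mouse and the WT BALB/cJ mouse were the highest of the 8 in Per1, a repressor in the clock loop, at 11.20 and 11.30 (TG A/J 9.88, 9.90 and 10.03, TG BALB/cJ mice 1 and 2 at 10.56 and 10.25, -0.73 ± 0.18, adjusted p = 0.016). Without TG BALB/cJ mouse 3 the Per1 difference was -0.46 and not called (0.064), and the call was also lost without TG A/J mouse 1 (0.057) or with only the 8 arrays (0.098). Time of day is not given for any mouse.

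Genes that differed between the strains without the transgene were set apart with the WT mice, 1 against 1. Their comparison shares no mouse with the TG comparison and called 62 genes (0.459%), 42 higher in A/J and 20 lower. Of the 1435 genes called in TG mice, 64.3% had the same sign in WT mice, against 57.4% of all genes. Called in both comparisons were 18 genes, 1.3% of the TG calls and 29.0% of the WT calls, 16 of them in the same direction. The other 2, F5 and P2ry12, are expressed in platelets, whose markers were high in the WT BALB/cJ mouse. The part of platelet RNA in these 2 genes was not tested. Of the 98 genes past 2-fold in TG mice, 60 had the same sign in WT mice, and 15 had the same sign and at least 0.5 of that size there. The correlation of the differences across all genes was 0.24, a description, since genes are not replicates and each WT value is from 1 mouse.

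**Figure D3:**
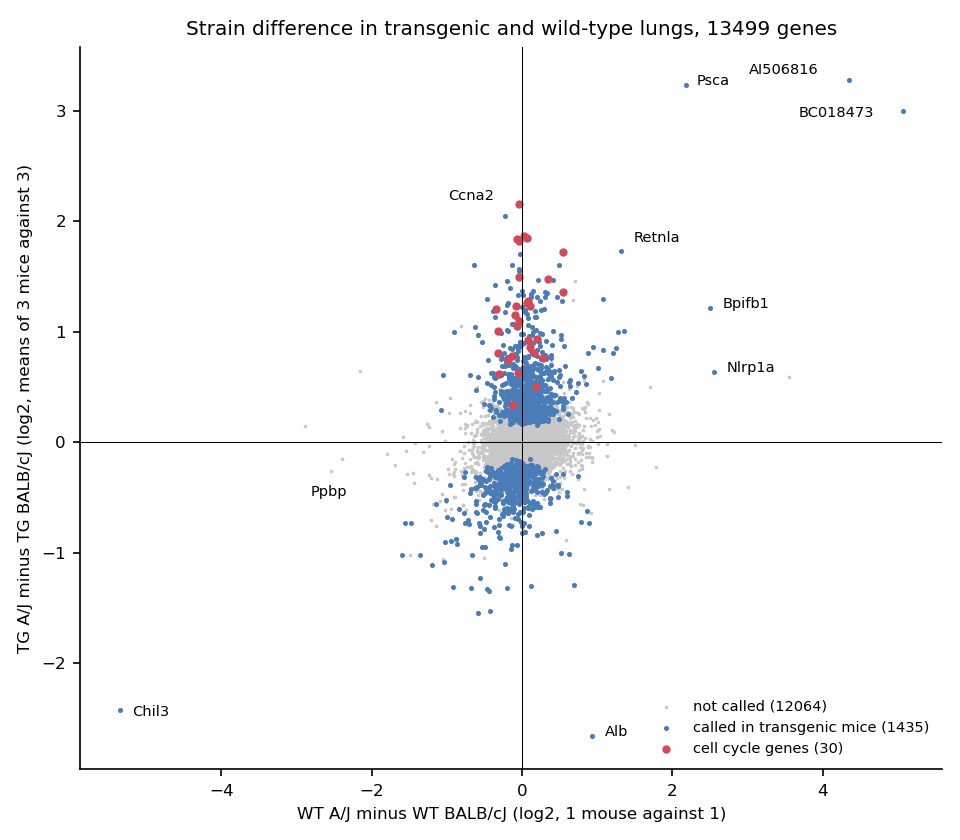
Log2 difference between A/J and BALB/cJ in TG mice (vertical axis, 3 against 3) and in WT mice (horizontal axis, 1 against 1) for 13499 genes, with the 1435 called genes in blue and 30 cell cycle genes in red. Cell cycle genes lie high on the vertical axis and between -0.35 and 0.55 on the horizontal, while BC018473, AI506816 and Psca are high, and Chil3 low, on both.

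BC018473, a transcript on chromosome 11, read 9.22, 8.70 and 9.61 in TG A/J mice, 11.01 in the WT A/J mouse and at most 6.25 in the 4 BALB/cJ mice (2.99 ± 0.21, adjusted p = 5.1e-07, and 5.06 ± 0.36 in WT mice, adjusted p = 1.5e-06). Among the other TG mice, those of 129 read 9.95 to 10.93 and those of AKR/J, C3H and C57BL/6J at most 6.71. AI506816, on chromosome 5, read 9.42, 9.41 and 11.18 in TG A/J and 6.87, 7.29 and 6.02 in TG BALB/cJ mice (3.28 ± 0.42, adjusted p = 0.00011), with WT mice at 9.97 (A/J) and 5.62 (BALB/cJ).

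Psca, on chromosome 15, encodes prostate stem cell antigen, a GPI-anchored surface protein of epithelia. It read 7.27, 10.42 and 10.61 in TG A/J mice and 6.30, 6.12 and 6.19 in TG BALB/cJ mice, a mean difference of 3.23 ± 0.55 (adjusted p = 0.0012). With only the 8 arrays the adjusted p was 0.058. The BALB/cJ values lie at or near 6.30, the lower quartile of probe set means, and were not shown to be above background, so no fold is given. TG A/J mouse 1 was over 3 log2 units below mice 2 and 3 and still above every BALB/cJ mouse, and the WT A/J mouse lay between at 8.31. With only the 8 arrays the adjusted p was 0.058. TG 129 mice read 9.04 to 9.93, so a high Psca level was not limited to the strains that the design names prone.

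Chil3, on chromosome 3, encodes a chitinase-like lectin of alveolar macrophages. It read 7.04, 7.10 and 5.34 in TG A/J mice and 7.93, 8.71 and 10.11 in TG BALB/cJ mice (-2.42 ± 0.48, adjusted p = 0.0035), and 4.91 and 10.26 in the WT A/J and WT BALB/cJ mice. TG BALB/cJ mouse 3 and the WT BALB/cJ mouse were the highest of the 8. The adjusted p was 0.069 with only the 8 arrays. Retnla, on chromosome 16, a product of alternatively activated macrophages, went the other way, at 10.37, 10.32 and 9.93 against 8.91, 8.46 and 8.04 (1.73 ± 0.50, adjusted p = 0.036). Its call was lost without TG A/J mouse 1 (0.11) or 2 (0.088) and without TG BALB/cJ mouse 2 (0.099) or 3 (0.12). Zfp979, a zinc finger gene on chromosome 4, read 6.59, 6.55 and 8.24 against 4.42, 5.73 and 5.08 (2.05 ± 0.36, adjusted p = 0.0015) and 5.35 (A/J) and 5.57 (BALB/cJ) in the WT mice, with an adjusted p of 0.056 with only the 8 arrays. Zhx2 was called higher in TG A/J (1.36 ± 0.24, adjusted p = 0.0015), with TG BALB/cJ mice 1 and 2 far below mouse 3, and its adjusted p was 0.058 with only the 8 arrays.

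**Figure D4:**
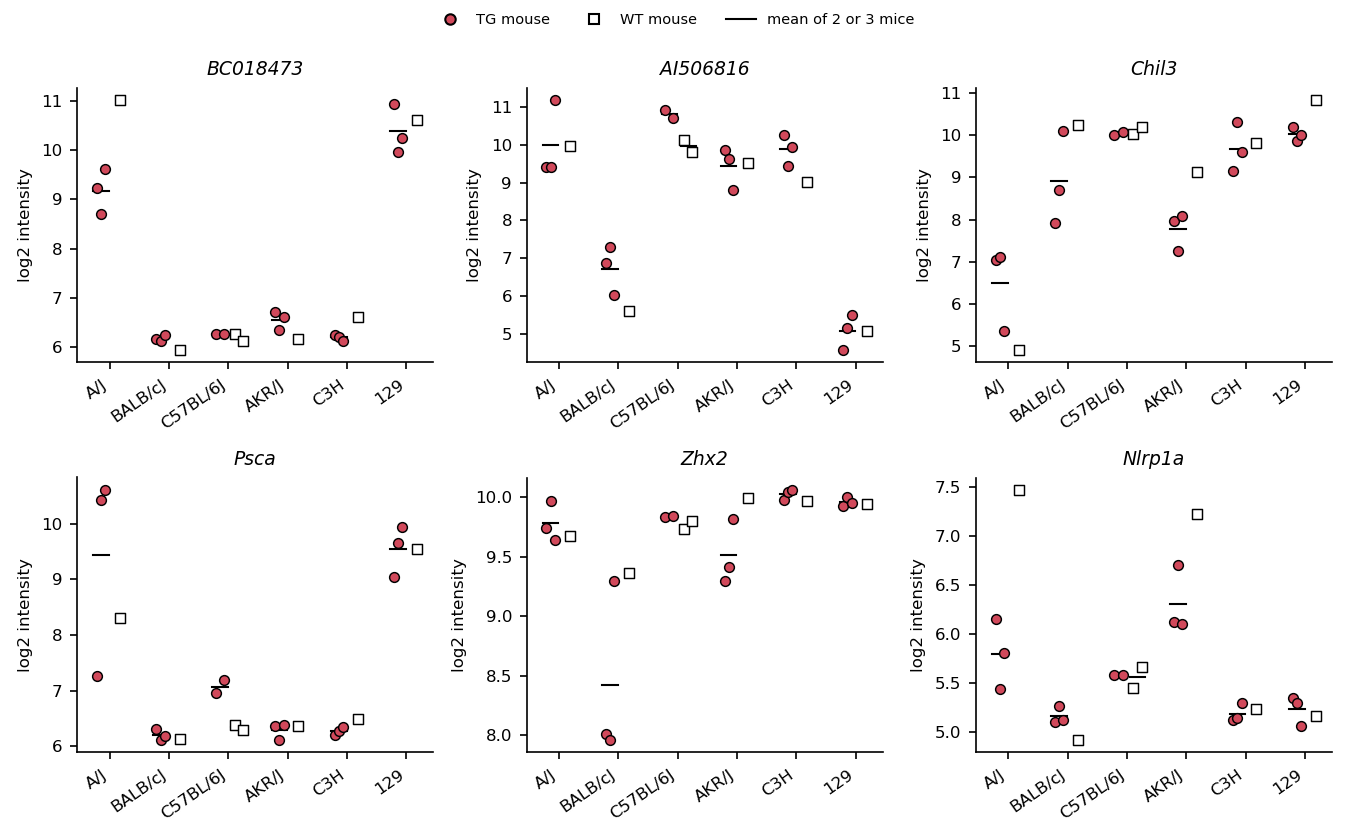
Log2 intensity of 6 genes in each of the 24 mice, by strain, with TG mice as filled circles, WT mice as open squares and group means of 2 or 3 mice as lines. BC018473 and Psca are high in A/J and 129, AI506816 is low in BALB/cJ and 129, Chil3 is low in A/J, and for Zhx2 the TG BALB/cJ mice 1 and 2 at 8.01 and 7.96 are the lowest of all.

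Of the 12 largest differences among genes lower in TG A/J mice, 5 were C/D box small nucleolar RNAs, which guide methylation of ribosomal RNA: Snord53, Snord104, Snord82, Snord49b and Snord73b. Snord53 read 9.02, 9.15 and 9.18 in TG A/J mice and 11.56, 10.57 and 9.80 in TG BALB/cJ mice (-1.53 ± 0.31, adjusted p = 0.0043), with BALB/cJ mouse 1 the highest. With only the 8 arrays the calls of Snord53 (adjusted p = 0.06), Snord104 (0.059) and Snord73b (0.1) were lost. Of all 23 Snord symbols measured, a group chosen after its values were seen, 9 were lower and 0 higher, against 3.82% lower over all genes. With only the 8 arrays 2 of the 23 were called, and 650 of all 13499 genes. Of the 12 H/ACA box (Snora) symbols, which guide pseudouridylation, 0 were called by limma and 3 had an unadjusted p under 0.05, with a median difference of -0.20. The median level of the Snord symbols was 7.46 to 7.55 in the TG A/J mice and 8.03, 7.94 and 7.58 in TG BALB/cJ mice 1, 2 and 3. The WT mice read 7.52 (A/J) and 7.74 (BALB/cJ). TG AKR/J mice, at 7.39 to 7.52, and TG C3H mice, at 7.34 to 7.38, read as low as TG A/J. TG 129 mice read 7.79 to 7.97 and TG C57BL/6J mice 7.723 and 7.725.

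Mir30a, the hairpin of a microRNA family known to be abundant in lung epithelium, read 7.09, 7.32 and 6.52 in TG A/J mice and 7.88, 8.34 and 8.04 in TG BALB/cJ mice (-1.11 ± 0.23, adjusted p = 0.0055, 2.16-fold lower). The WT mice read 6.80 (A/J) and 7.999 (BALB/cJ). Its mature arms in RefSeq (GRCm38.p6, plus strand, chr1:23272274-23272295 and chr1:23272315-23272336) are shown because they differ in seed, bases 2 to 8, given in capitals.
mmu-miR-30a-5p: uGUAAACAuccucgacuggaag
mmu-miR-30a-3p: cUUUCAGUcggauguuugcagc
The probe set is named for the hairpin, so its value is not assigned to either arm. Gm4956, an unnamed transcript on chromosome 1, read 7.91, 7.71 and 7.66 against 9.06, 8.98 and 9.87 (-1.54 ± 0.21, adjusted p = 0.00019). Alb, serum albumin, had the largest difference of the 12, -2.66 ± 0.80 (adjusted p = 0.042), by TG BALB/cJ mouse 1 at 12.41 while mice 2 and 3 read 7.14 and 8.37 and the TG A/J mice 6.65, 6.53 and 6.76. Without that mouse the difference was -1.11 (adjusted p = 0.024), and without TG A/J mouse 1, 2 or 3 the adjusted p was 0.1, 0.095 and 0.072. Other liver genes, chosen after their values were seen, were high in that same mouse: Serpina1c read 7.25, 5.04 and 5.23 and Fgb 7.47, 6.18 and 6.32 in the TG BALB/cJ mice, and the part of liver RNA in the other results was not tested.

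The transgene effect within each strain was read as 3 TG mice against 1 WT mouse. In A/J, 2009 genes were called (14.9%), 918 higher (6.80%) and 1091 lower (8.08%). In BALB/cJ, 305 were called (2.26%), 134 higher (0.993%) and 171 lower (1.27%), and 142 without TG BALB/cJ mouse 1. Both counts rest on a single WT mouse, whose spread was taken to be that of the remaining groups. Fabp7, a fatty acid-binding protein, had the largest rise in both strains, close to that of Igf1 in A/J. It went from 7.42 to 9.93, 9.01 and 10.49 in A/J (2.39 ± 0.50, adjusted p = 0.0034) and from 7.04 to 10.12, 9.61 and 10.60 in BALB/cJ (3.07 ± 0.50, adjusted p = 0.0045). Igf1, a growth factor for fibroblasts and epithelium, rose by 2.39 ± 0.23 in A/J and 1.08 ± 0.23 in BALB/cJ (adjusted p = 2.1e-05 and 0.022). Itgb6, Ltbp2, Lox and Pmepa1, a feedback inhibitor of Smad signalling, rose in both strains, and Acoxl, a peroxisomal oxidase, fell in both (changes of -2.16 ± 0.48 and -2.32 ± 0.48, the second with an adjusted p of 0.056 without TG BALB/cJ mouse 1).

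The 15 genes listed as responders to the transgene had been picked from earlier results of these mice, so their direction is not independent evidence. All 15 passed in A/J and 7 passed in BALB/cJ, where all 15 had an unadjusted limma p under 0.05. The difference of the effects between the strains was called for 0 of them, with an unadjusted p under 0.05 for 9. Between the TG groups, 6 of the 15 were higher in A/J and 2, Gsta3 and Cyp4b1, were lower. Pigr, the transporter of IgA across epithelium, fell in A/J, with a change of -2.18 ± 0.27 (adjusted p = 9.4e-05), and had a change of -0.92 ± 0.27 in BALB/cJ (adjusted p = 0.095). Igfbp3, an IGF-binding protein, fell in A/J, with a change of -2.58 ± 0.36 (0.0002), against -1.02 ± 0.36 in BALB/cJ (0.16). Platelet genes fell in BALB/cJ in 9 of 13 cases, led by Ppbp (-4.44 ± 0.38, adjusted p = 1.4e-05) and Rgs18 (-2.45 ± 0.28, adjusted p = 0.00017). The WT BALB/cJ mouse, at 12.58 and 10.72, held the highest values of both genes among these 8 mice, and the differences between the TG groups did not pass (-0.26 ± 0.27 and -0.11 ± 0.19, adjusted p = 0.62 and 0.8).

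The difference of the transgene effects, A/J minus BALB/cJ, was called for 105 genes (0.778%), 62 higher and 43 lower. With only the 8 arrays limma called 0 genes, with 1461 at an unadjusted p under 0.05 against 1702 with all 24 arrays. The count was 66 without TG A/J mouse 1, 210 without mouse 2, 203 without mouse 3 and 61 without TG BALB/cJ mouse 1. The 6 largest positive values were all cell division genes. Ccna2 rose by 2.07 ± 0.29 in A/J against -0.12 ± 0.29 in BALB/cJ (adjusted p = 0.91), a difference of 2.19 ± 0.41 (adjusted p = 0.02). Cdk1 had a difference of 1.90 ± 0.34 (0.015), Kif11 of 1.84 ± 0.35 (0.021) and Top2a of 1.78 ± 0.34 (0.021). Racgap1, which works with Ect2 in cytokinesis, had the smallest p of the 6, with 9.09, 8.57 and 8.94 in TG A/J mice, 7.36 in the WT A/J mouse, 7.40, 7.59 and 7.36 in TG BALB/cJ mice and 7.72 in the WT BALB/cJ mouse (1.78 ± 0.24, adjusted p = 0.0036). Dtl, which marks replication proteins for degradation, followed at 1.76 ± 0.31 (0.014). Of the 30 cell cycle genes, 13 were called and all 30 had a value above 0. For Top2a the mean of both probe sets gave 0.88 (adjusted p = 0.055).

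For each of the 6 largest negative values, the WT A/J mouse read higher than all 3 TG A/J mice. Scarna13, a small RNA of Cajal bodies, read 10.80 in that mouse and 8.64 to 9.26 in the 6 TG mice (-2.01 ± 0.20, adjusted p = 0.0003). BC018473 (-2.07 ± 0.41), Nlrp1a (-1.92 ± 0.32) and Slc4a1, the red cell anion exchanger (-1.82 ± 0.32), likewise read highest in the WT A/J mouse. Akr1c14 (-1.97 ± 0.40) and 1810010H24Rik (-1.64 ± 0.27) were lower in TG A/J than in TG BALB/cJ mice as well, with 1810010H24Rik at 9.69, 10.04 and 9.83 against 10.88, 11.03 and 10.69 (-1.01 ± 0.13, adjusted p = 0.00014). The Akr1c14 value lost its call without TG A/J mouse 1 (0.053) or TG BALB/cJ mouse 2 (0.051), and that of BC018473 without TG BALB/cJ mouse 1 (0.051). Among cell type genes, Rtkn2, Sema3a and Sema3e of type 1 cells had negative differences of -1.51 ± 0.26, -1.06 ± 0.17 and -0.77 ± 0.12 (adjusted p = 0.014, 0.01 and 0.0099). Between the TG groups these genes differed by only -0.72, -0.45 and -0.43, so part of each value came from the single WT mice. The WT A/J mouse was above the WT BALB/cJ mouse in 13 of 14 type 1 cell genes, with a median difference of 0.35. Sema3a fell in A/J, with a change of -0.53 ± 0.12, and rose by 0.52 ± 0.12 in BALB/cJ, both past the threshold (adjusted p = 0.0071 and 0.033). Ciliated cell genes fell in A/J in 21 of 34 cases and in BALB/cJ in 0 (5 at an unadjusted p under 0.05), but the difference was called by limma for 0 of them, with 10 at an unadjusted p under 0.05, and the WT A/J mouse was above the WT BALB/cJ mouse by a median of 0.39.

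**Figure D5:**
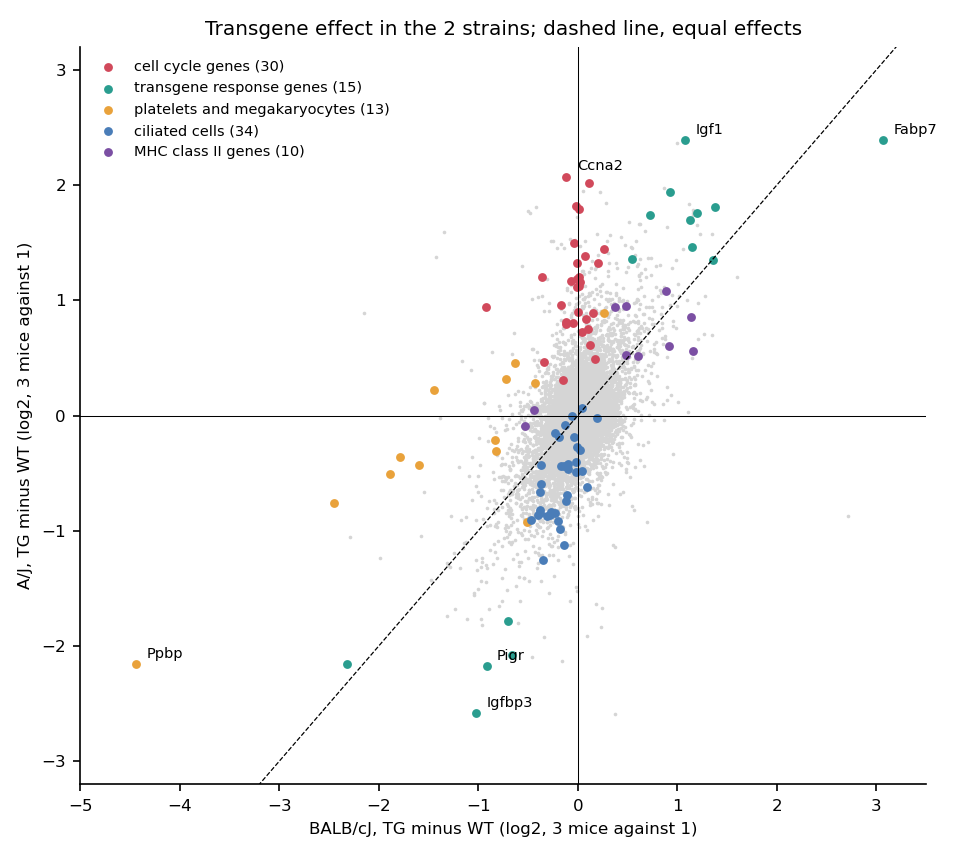
Log2 transgene effect (TG minus WT, 3 mice against 1) in A/J on the vertical axis and BALB/cJ on the horizontal axis; grey points are all genes, colours mark 5 lists and the dashed line is equality. Cell cycle genes lie above the line, most of them near 0 on the BALB/cJ axis, MHC class II genes near the line for most members, and platelet genes to the left with Ppbp at -4.44 in BALB/cJ.

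The other 4 strains were placed on the same scale by asking, for each of the 1435 called genes, whether a strain's TG mean lay nearer to A/J or to BALB/cJ. C57BL/6J lay nearer to A/J for 55.1% of them (45.2% of all genes), C3H for 25.8% (40.8%), 129 for 24.3% (40.8%) and AKR/J for 17.6% (44.9%). The largest class held 446 genes, 31.1% of those called against 12.9% of all genes, for which only C57BL/6J was nearer to A/J. For 356 called genes (24.8%), and for 2029 of all 13499 genes, A/J stood alone, and for 34 (2.4% against 6.9%) BALB/cJ stood alone. The pattern that matches the design, with AKR/J and C57BL/6J on the A/J side and 129 and C3H on the BALB/cJ side, was held by 27 genes, 1.9% of those called and 3.2% of all genes. Called genes lay on all chromosomes with 100 or more measured genes, at shares from 7.3% (chromosome 14) to 14.4% (chromosome 5). In runs of 20 neighbouring measured genes, the highest count of called genes was 8, on chromosomes 2, 3 and 5.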

How the data were processed

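Per the labels' protocols, lung RNA was purified with Trizol and a Qiagen kit, amplified with the Ambion WT Expression Kit and hybridised, and the authors deposited 1 processed value table of 25285 probe sets on 24 arrays, which was read here as log2 intensities from its range of 3.41 to 14.75. No source used here gives its log base, normalization or software. A probe set with 2 of 24 values was left out. In the platform annotation 14539 probe sets had 1 symbol, 781 had several and 9964 were unnamed here. A gene was read by its probe set of highest mean, which gave 13499 genes. The table was held in part: coverage of RefSeq protein-coding genes (GRCm38.p6) was 83.2% or more on autosomes 1 to 4 and 10 to 19, 29.2% on chromosome 5, and 2.2% or less for chromosomes 6, 7, 8, 9 and X.

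A limma 3.58.1 fit in R 4.3.3 (lmFit, eBayes, two-sided) with 12 group means and 12 residual degrees of freedom gave all contrasts. Errors are SEs of log2 differences, and p-values were adjusted over all 13499 genes with a threshold of 0.05. The script was tested on simulated data. Groups came from the titles, 1 array per mouse. The labels do not say that the mice of a group came from separate litters, so p-values measure the spread between these arrays, and the number of arrays limits the precision. The genes named are the 12 largest called TG differences each way without overlap, the 6 largest called values each way of the difference of effects and of the WT comparison, the 4 largest each way of each transgene effect, up to 4 called members of a described list by size (where none was called, the largest), and any strain check or transgene response gene. Of 41 lists with 1036 genes, 672 genes were measured. The members, lists and rule were chosen with earlier results of these data known. Python 3.11.15, pandas 2.3.3 and matplotlib 3.10.9 made tables and plots. Alternatives were the 8 arrays alone, quantile normalization, array weights, a filter on dim genes (mean under 6.30), the mean of all probe sets, eBayes with trend and robust settings, a replicate block and leaving out each TG mouse.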

Additional observations from a re-analysis of the deposited data

Results flagged for a closer look

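For 21 genes named in the text, the transgene effect differed between A/J and BALB/cJ by a test of the difference itself (limma, adjusted p under 0.05). Values are the A/J effect minus the BALB/cJ effect in log2 units, each effect being 3 TG mice against 1 WT mouse, so every value includes 1 WT mouse per strain.

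Cell division genes had positive values, 2.19 for Ccna2, 1.90 for Cdk1, 1.84 for Kif11, 1.78 for Top2a, 1.78 for Racgap1 and 1.76 for Dtl. Macrophage genes were positive too, with 1.22 for Fcrls and 0.79 for Mrc1. The platelet genes P2ry12 (1.67) and Plek (1.08) had positive values beside a WT BALB/cJ mouse that was high in platelet markers. Wif1, a secreted Wnt inhibitor, had 1.63, with the WT BALB/cJ mouse at 9.32 and the other 7 mice at 7.73 to 8.54.

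Negative values were -2.07 for BC018473, -2.01 for Scarna13, -1.97 for Akr1c14, -1.92 for Nlrp1a, -1.82 for Slc4a1, -1.64 for 1810010H24Rik and -1.53 for Alox15, a lipoxygenase of macrophages and airway cells. In each of these the WT A/J mouse read above all 3 TG A/J mice. The alveolar type 1 cell genes Rtkn2, Sema3a and Sema3e had -1.51, -1.06 and -0.77. The part of the platelet markers and of the single WT mice in these values was not tested.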

How the results depend on the processing

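Among the 1891 values of named genes under the alternatives, 1713 kept their direction and their side of the threshold, 178 kept their direction and lost the call, and 0 reversed. Counts of genes called stayed within 1.5 times the reported ones under quantile normalization, the filter on dim genes, the mean of all probe sets, and trend with robust settings. With only the 8 arrays the counts were 650 for the TG comparison, 3 for WT, 1210 for the A/J effect, 46 for the BALB/cJ effect and 0 for the difference of effects, from 4 residual degrees of freedom in place of 12. With array weights they were 2243 (TG), 128 (WT), 618 (BALB/cJ effect) and 361 (difference), and the cause was not tested. Leaving out each TG mouse in turn gave 781 to 1408 genes for the TG comparison, 1575 to 2204 for the A/J effect, 142 to 436 for the BALB/cJ effect and 61 to 210 for the difference.

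Groups share replicate numbers in the titles, but the deviations of same-numbered A/J and BALB/cJ mice correlated at -0.059, -0.026 and 0.012 across genes. These values gave no sign of pairing by number. They cannot show whether same-numbered mice were handled together. With the replicate number as a block, 1303 genes were called in the TG comparison, 52 in WT, 1829 and 282 for the A/J and BALB/cJ effects and 104 for the difference. The single WT mouse per strain, the unknown normalization and signal near background in dim genes limit what these values can show.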

Other observations

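Histone genes on chromosome 13, chosen after their values were seen, made up the calls in that chromosome's run of 20 neighbouring measured genes with the most calls. In TG A/J mice 7 of the 20 were higher, namely H2bc9, H4c6, H2bc8, H4c3, H2bc3, H2ac4 and H1f1. The count itself was not unusual. The highest count in such a run was also 7 on chromosomes 1, 4, 10, 11, 15, 17 and 19, and 8 on chromosomes 2, 3 and 5. Over all genes 10.6% were called and 6.82% were higher. Replication-dependent histone genes are near-identical copies, so single members are uncertain.

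Complement genes, the plasma and cell surface proteins that tag targets for removal, had 6 of 21 members higher in TG A/J and 3 lower. The 3 chains of C1q, C1qb, C1qa and C1qc, were higher by 0.87 ± 0.14, 0.84 ± 0.11 and 0.77 ± 0.14, and Cr2, a complement receptor of B cells, was lower at 6.44, 6.47 and 6.96 against 7.63, 7.84 and 7.45 (-1.02 ± 0.23, adjusted p = 0.0089). With only the 8 arrays 3 were higher. B and plasma cell genes had 1 of 14 lower, Cr2, and 1 higher, Sdc1, the plasma cell marker syndecan 1 (0.52 ± 0.09, adjusted p = 0.0016). The B and plasma cell counts lie near the shares over all genes, 6.82% higher and 3.82% lower, and the complement counts lie above them. The count of lower B cell genes was 6 without TG A/J mouse 3.

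MicroRNA hairpins were measured for 201 Mir symbols, of which 2 were higher and 5 lower in TG A/J mice. Both counts lie below the shares over all genes, 6.82% higher and 3.82% lower.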
